A study of Mus musculus with 4 samples.

Results

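The piRNA pathway genes described here are Piwil1, Piwil2, Mael, Tdrd1, Tdrd5, Tdrd6, Tdrd9, Mov10l1, Ddx4 and Pld6. They were chosen by name, as the rows of the expression table whose gene symbol equals a listed symbol, and all 10 were present among the 23420 genes of the table. RNA was measured by RNA-seq in pachytene spermatocytes, which are male germ cells in the long pachytene stage of meiotic prophase. The cells were sorted by FACS from testes of wild-type C57BL/6 mice aged 23 weeks and kept in culture for 24 h. Ctrl cells received DMSO, the solvent, and AZ20 cells received AZ20, an inhibitor of the ATR kinase, at 10 μM, with 2 libraries a group and 15000 cells a library. Every library therefore came from wild-type cells that had been sorted and cultured, and none from freshly isolated tissue. The methods state that cells of a mouse were divided between treatment and control. Neither they nor the labels say which libraries share a mouse, so pairing libraries by replicate number is an assumption. The culture temperature is 32 °C in the methods and 34 °C in the sample labels. The question put to these genes was whether their mRNA levels differed between spermatocytes cultured with AZ20 and with DMSO.

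PIWI-interacting RNAs (piRNAs) are small RNAs of the germline that are cut from long single-stranded precursors and loaded into PIWI proteins, which they guide to complementary RNA. In fetal germ cells they silence transposons, and in pachytene spermatocytes a large class of pachytene piRNAs is made from precursors that are transcribed at this stage. Processing takes place in germ granules and at the mitochondrial surface, and male mice that lack a protein of the pathway are often sterile, with arrest in meiosis or in spermatids.

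Promoter sequences are shown first, because 7 of the 8 members with a RefSeq entry held an E-box there, a feature that the choice of members had not used. The windows ran from 250 bases before to 50 bases after a RefSeq start (GRCm38.p6), and 3 of them are printed: those of Mael and Ddx4, the most abundant members, and of Piwil1, the only member whose single window held 2 E-boxes and both forms of the MYB core. Each window is written 5′ to 3′ on the strand of the gene. Capitals mark the E-box CACGTG, which reads the same on both strands, and the MYB core as AACTG (T form) or AACGG (G form) on either strand, so that CAGTT and CCGTT are their reverse complements.
Mael, chr1:166238695-166238994, minus strand: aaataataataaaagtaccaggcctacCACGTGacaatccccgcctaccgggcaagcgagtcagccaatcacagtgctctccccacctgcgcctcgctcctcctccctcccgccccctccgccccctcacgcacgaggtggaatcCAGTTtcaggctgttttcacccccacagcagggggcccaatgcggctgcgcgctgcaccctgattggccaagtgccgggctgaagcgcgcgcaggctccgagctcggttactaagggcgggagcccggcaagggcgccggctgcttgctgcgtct
Ddx4, chr13:112652261-112652560, minus strand: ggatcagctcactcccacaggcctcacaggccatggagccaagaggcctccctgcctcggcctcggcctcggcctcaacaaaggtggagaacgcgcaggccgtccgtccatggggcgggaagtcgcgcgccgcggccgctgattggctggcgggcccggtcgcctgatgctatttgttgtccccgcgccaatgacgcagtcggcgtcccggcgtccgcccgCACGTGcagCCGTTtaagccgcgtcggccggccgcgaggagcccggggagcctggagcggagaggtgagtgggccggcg
Piwil1, chr5:128735996-128736295, plus strand: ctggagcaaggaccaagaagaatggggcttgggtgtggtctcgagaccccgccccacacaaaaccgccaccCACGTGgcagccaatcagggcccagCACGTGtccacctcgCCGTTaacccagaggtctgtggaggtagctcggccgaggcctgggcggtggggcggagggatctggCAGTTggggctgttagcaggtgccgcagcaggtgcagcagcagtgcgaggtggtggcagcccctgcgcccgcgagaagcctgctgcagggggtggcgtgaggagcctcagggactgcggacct

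In these windows the E-box of Ddx4 began 29 bases before the start site and its G form of the MYB core 20 bases before it. In Mael the E-box lay farther upstream, at 223 bases, and the T form at 105 bases. The E-boxes of Piwil1 began 179 and 154 bases upstream, with a G form at 139 and a T form at 73. The window of Piwil1 was drawn on a RefSeq start that lies inside the gene span of GENCODE M21, whereas those of Mael and Ddx4 lie close to the GENCODE start. No base of the member windows belonged to more than 1 match (0 shared bases).

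An E-box was present in at least 1 window of 7 of 8 members (87.5%), the exception being Tdrd5. Of all 27025 genes with a RefSeq promoter, 8.09% held it, and of all 32851 windows 7.15%. Member windows held more CpG dinucleotides, with a median of 20 against 7 over all windows. Among the 8701 windows with at least 20 CpG, an E-box was found in 11.6%. The G form of the MYB core was present in 6 of 8 members against 19.6% of genes, and the T form in 3 of 8 against 48.2%. Either form was present in 8 of 8 members against 58.6% of genes. Among the windows with at least 20 CpG, the G form was found in 25.8%, the T form in 26.5% and either form in 3913 of 8701 windows. The share of members with the T form, 37.5%, lay below that of all genes and above that of CpG-rich windows. Shares of CpG-rich windows count windows, whereas those of members count a gene once over all its windows. Not all member windows held 20 CpG (lowest 3), and with 8 members the order of these shares was not tested. Tdrd9 resembled Piwil1 in having 2 E-boxes, at 165 and 95 bases upstream, and Pld6 and Tdrd1 had several RefSeq starts, not all with an E-box. Among the 21 other piRNA pathway genes with an entry, 5 held an E-box (Fkbp6, Stk31, Dnmt3l, Dnmt3a and Ddx25), or 23.8%. Among 8 genes of the microRNA pathway, 0 did. These matches describe letters and were not tested as sites of any factor. Piwil2 and Tdrd6 had no entry.

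**Figure D1:**
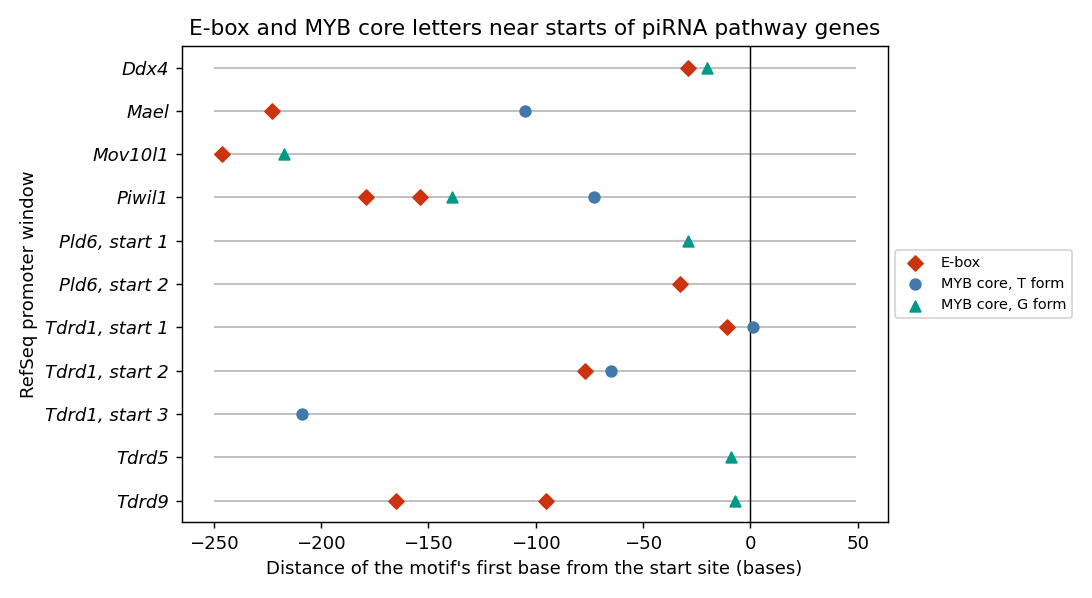
Positions of E-box and MYB core letters in the RefSeq promoter windows of 8 members. The horizontal axis is the distance in bases of the first base of a match from the start site (vertical line), each grey line is 1 window from 250 bases before to 50 bases after a start, and genes with several starts have a line for each. Red diamonds (E-box) appear for every gene but Tdrd5, and in Ddx4, the second Pld6 window and the first Tdrd1 window they lie within 33 bases of the start.

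The 4 libraries held 14083503 to 20407302 reads on genes, as recovered from the deposited TPM (transcript abundance scaled to a total of 1000000). TPM corrects for gene length and library size, so levels of different genes are compared only on this scale. Markers were counted by their mean in either group. The 9 fixed markers of pachytene spermatocytes, such as Sycp3 and Hormad1, were all above 1 TPM, with a summed level of 11510 to 11670 TPM in Ctrl and 11770 to 11800 in AZ20. Of 8 Sertoli cell markers 1 was above 1 TPM, and Sox9, Wt1, Gata4, Fshr and Amhr2 had 3 reads or fewer in every library. Leydig cell, macrophage and peritubular myoid cell markers passed 1 TPM in 1 of 6, 0 of 6 and 1 of 5 cases. Of 8 spermatogonial markers 2 did, with summed levels of 8.26 to 21.2 TPM in Ctrl and 13.5 to 14.9 in AZ20, and Stra8, Sohlh1 and Dmrt1 had 3 reads or fewer in every library. All 8 round spermatid markers passed 1 TPM, Tssk6 only in AZ20, and their sums were 368.1 and 151.7 TPM in Ctrl and 779.9 and 254.6 in AZ20. The sum was higher with AZ20 in both pairs and higher in replicate 1 of both groups, so that the groups overlapped. The changes of these 8 markers lay between 0.24 and 1.11, with a median of 0.77 beside -0.07 for the 9 pachytene markers, and 0 of 8 had an unadjusted p under 0.05 in limma. The part of other cell types in the members' levels was not tested, and in bulk RNA fewer cells of a type cannot be told apart from less RNA per cell.

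All 10 members were well above the level limit of the test, a mean of 1 TPM in either group, which 10316 genes passed. In Ctrl they ranked between 133 (Mael) and 3531 (Tdrd6) of these genes, at percentiles 98.7 to 65.8. The order in Ctrl was Mael, Ddx4, Pld6, Piwil1, Tdrd1, Mov10l1, Tdrd5, Piwil2, Tdrd9 and Tdrd6. Mael was 2.07 times as abundant as Ddx4, which in turn was 5.93 times as abundant as Pld6. Together, Mael and Ddx4 made up 83.0% and 84.1% of the members' summed TPM in Ctrl and 83.1% and 83.2% in AZ20. Most neighbours in this order had separate Ctrl values, but Mov10l1 and Tdrd5, and Tdrd5 and Piwil2, had overlapping ones. In AZ20 the values of Pld6 and Piwil1, of Tdrd1 and Mov10l1, and of Tdrd9 and Tdrd6 were not separated.

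**Figure D2:**
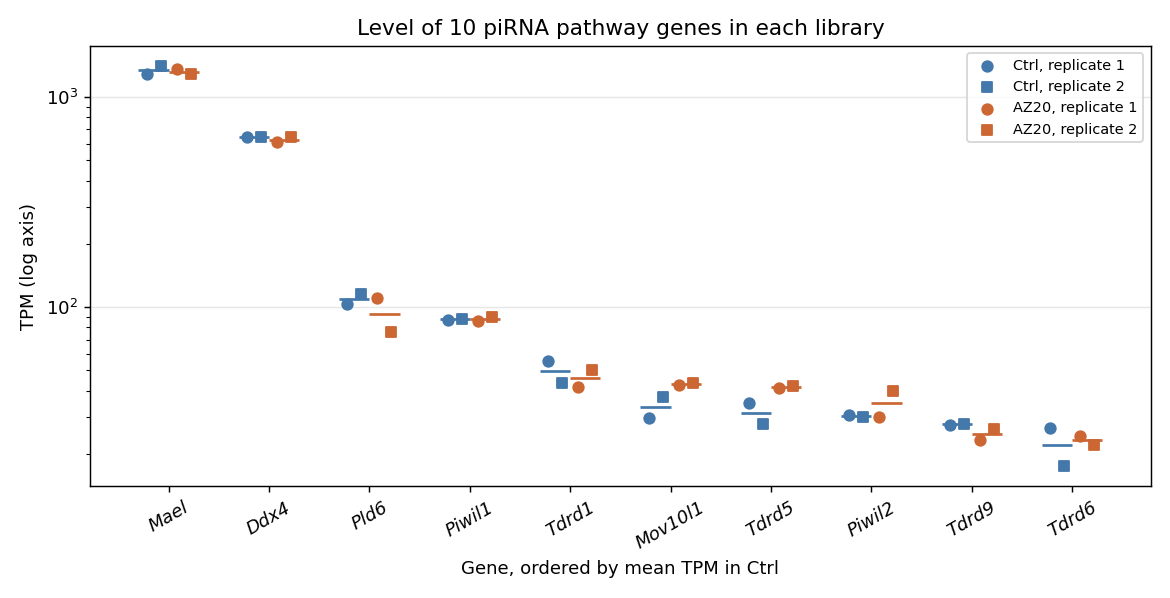
TPM of each member in each library, on a log axis, with genes in order of their mean in Ctrl. Blue marks are Ctrl and orange marks AZ20, circles are replicate 1, squares replicate 2, and short lines are group means (n = 2). Mael and Ddx4 lie at 610.5 TPM or higher in all libraries and the other 8 members at 114.9 TPM or lower.

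Between Ctrl and AZ20, none of the 10 members was called at 2-fold or more with an adjusted p under 0.05 (limma on log2(TPM + 1), Benjamini-Hochberg over all 10316 genes), 0 higher and 0 lower. By that rule 240 of all genes tested were called (2.33%), but on autosomes, where all 10 members lie, 15 of 9936 (0.151%). At an unadjusted p under 0.05 the count was also 0 of 10 in both directions, by limma and by voom on recovered reads. On autosomes 5.16% of genes were higher and 1.18% lower at that level. The changes of the members ran from -0.25 in Pld6 to 0.41 in Tdrd5 on the log2(TPM + 1) scale, with Mov10l1 at 0.36. With 2 libraries against 2, an exact permutation test of a single gene cannot give a two-sided p below 0.333.

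Piwil1 and Piwil2 encode the PIWI proteins MIWI and MILI, which carry piRNAs. Piwil1 (ENSMUSG00000029423, GRCm38 chr5:128702524-128755474, plus strand) is the chief carrier of pachytene piRNAs and cuts target RNA. Its level was 86.9 and 88.0 TPM in Ctrl and 85.7 and 89.6 TPM in AZ20. The AZ20 values lay on either side of both Ctrl values, and the change was 0.00 ± 0.17 (SE) on the log2 scale (95% interval -0.40 to 0.40, limma adjusted p = 0.999). Piwil2 (ENSMUSG00000033644, chr14:70372477-70429383, minus strand) acts from fetal germ cells onward. Its level was 30.8 and 30.1 TPM in Ctrl and 29.9 and 40.0 TPM in AZ20. AZ20 replicate 2 stood above the other libraries, which were within 1 TPM of each other, and the groups overlapped. The change was 0.18 ± 0.22 (SE; 95% interval -0.34 to 0.70, limma adjusted p = 0.882). Piwil1 was 2.83 and 2.92 times as abundant as Piwil2 in Ctrl, and 2.87 and 2.24 times in AZ20.

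Mov10l1, Pld6 and Tdrd9 encode enzymes of the pathway. The RNA helicase MOV10L1 binds piRNA precursors and feeds them to the cut that forms piRNA 5′ ends. Mov10l1 (ENSMUSG00000015365, chr15:88982909-89055152, plus strand) was at 29.6 and 37.4 TPM in Ctrl and 42.7 and 43.5 TPM in AZ20. Both AZ20 values exceeded both Ctrl values, with differences of 0.51 and 0.21 on the log2 scale in the first and the second pair. The limma change was 0.36 ± 0.21 (SE; 95% interval -0.12 to 0.85, adjusted p = 0.702). The cut itself is attributed to PLD6, a nuclease of the mitochondrial outer membrane, also called Zucchini in flies. Pld6 (ENSMUSG00000043648, chr11:59783897-59787645, minus strand) had 103.4 and 114.9 TPM in Ctrl and 110.7 and 75.8 TPM in AZ20. AZ20 replicate 2 was the lowest library and AZ20 replicate 1 lay between the Ctrl values. The pairs differed in sign, at 0.10 and -0.59, and the change was -0.25 ± 0.22 (SE; 95% interval -0.78 to 0.28, limma adjusted p = 0.831). TDRD9 joins a helicase to a Tudor domain and acts in transposon silencing. Tdrd9 (ENSMUSG00000054003, chr12:111971559-112068854, plus strand) was at 27.6 and 27.9 TPM in Ctrl and 23.4 and 26.4 TPM in AZ20. Both AZ20 values were below both Ctrl values, by little in the second pair (-0.23 and -0.07 on the log2 scale). The change was -0.15 ± 0.20 (SE; 95% interval -0.63 to 0.33, limma adjusted p = 0.895).

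The other Tudor-domain members, Tdrd1, Tdrd5 and Tdrd6, encode scaffolds that bind PIWI proteins in granules. TDRD1 binds methylated arginines of PIWIL2 in the granules between mitochondria. Tdrd1 (ENSMUSG00000025081, chr19:56826209-56870012, plus strand) was at 55.7 and 43.5 TPM in Ctrl and 41.8 and 50.1 TPM in AZ20. The pairs went in opposite directions, by -0.41 and 0.20, and the groups overlapped. The limma change was -0.10 ± 0.22 (SE; 95% interval -0.61 to 0.41, adjusted p = 0.941). TDRD5 is needed for pachytene piRNAs and for the chromatoid body, the large granule of spermatids. Tdrd5 (ENSMUSG00000060985, chr1:156255296-156303664, minus strand) was at 35.0 and 27.8 TPM in Ctrl and 41.4 and 41.9 TPM in AZ20. Both AZ20 values were above both Ctrl values, with pair differences of 0.23 and 0.58. Its change was the largest of the members, at 0.41 ± 0.21 (SE; 95% interval -0.08 to 0.90), and did not pass the test (limma adjusted p = 0.666). An annotated antisense gene, 4930518J20Rik, overlaps 2.54% of the 6937 exonic bases of Tdrd5 in GENCODE M21, and without strand its reads cannot be told apart there. The length behind the TPM of Tdrd5 was 3443 bases, so whether the overlap was counted is not known. Exons of the other members overlap no exon of another gene in GENCODE M21. TDRD6 is an architectural protein of the chromatoid body. Tdrd6 (ENSMUSG00000040140, chr17:43615335-43630299, minus strand) was at 26.5 and 17.5 TPM in Ctrl and 24.4 and 22.1 TPM in AZ20. Both AZ20 values lay between the Ctrl values, and the change was 0.10 ± 0.25 (SE), with the widest interval of the members (-0.50 to 0.71, limma adjusted p = 0.955).

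Mael and Ddx4 encode granule proteins that are abundant throughout the meiotic germline. Maelstrom, the product of Mael, has an HMG box and acts in transposon silencing and in piRNA production. Mael (ENSMUSG00000040629, chr1:166201201-166238747, minus strand) was at 1283 and 1404 TPM in Ctrl and 1358 and 1284 TPM in AZ20. Both AZ20 values lay between the Ctrl values, and the change was -0.02 ± 0.13 (SE), with the narrowest interval of the members (-0.33 to 0.28, limma adjusted p = 0.982). DDX4, or VASA, is a DEAD-box RNA helicase that marks germ cells. Ddx4 (ENSMUSG00000021758, chr13:112598333-112652475, minus strand) was at 647.4 and 647.9 TPM in Ctrl and 610.5 and 641.3 TPM in AZ20. The Ctrl values were within 1 TPM of each other and both AZ20 values were below them. The change was -0.05 ± 0.13 (SE; 95% interval -0.37 to 0.27, limma adjusted p = 0.958). The ratio of Mael to Ddx4 lay between 1.98 and 2.23 in the 4 libraries.

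**Figure D3:**
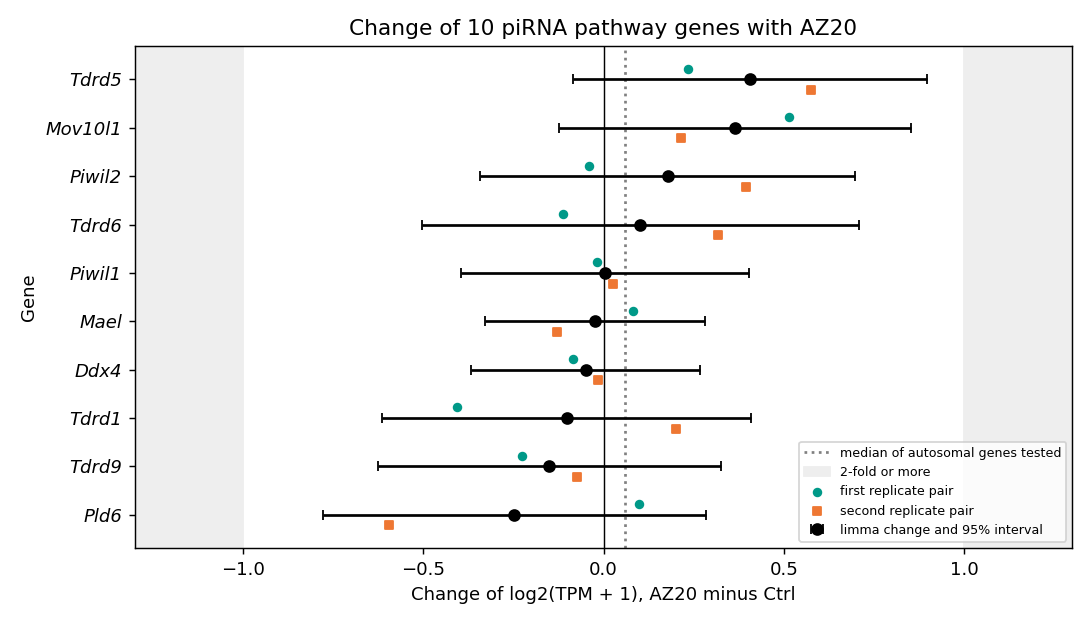
Change of each member, AZ20 minus Ctrl, on the log2(TPM + 1) scale. Black points and bars are limma changes with 95% intervals, green circles and orange squares are the differences within the first and the second replicate pair, the dotted line is the median of autosomal genes tested (0.06), and shading begins at 2-fold. All 10 intervals include 0 and none reaches the shading.

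Taking the members as a list, the changes lay above 0 for 5 members and below 0 for 5, although Piwil1, Mael and Tdrd6 took the other sign under quantile normalization. The groups did not overlap in 4 members. In Tdrd5 and Mov10l1 both AZ20 values were the higher ones (2 of 10, against 24.1% of autosomal genes tested), and in Ddx4 and Tdrd9 the lower ones (2 of 10, against 12.2%). Both pairs had the same sign in 4 of 10 members, against 54.1% of autosomal genes. The median change was -0.01, beside 0.06 for autosomal genes, and the median size of a change regardless of sign was 0.13, beside 0.20. The 95% intervals extended 0.31 to 0.60 to each side, so a 2-fold change lay outside the interval of every member. Changes within these intervals could not be resolved in 4 libraries. The call rule, with its adjustment and 2-fold minimum, is stricter than an interval, so larger changes could also go uncalled. Summed over the members, the level was 2326 and 2439 TPM in Ctrl and 2369 and 2315 TPM in AZ20. Without Mael and Ddx4 the sums were 395.4 and 387.0 TPM in Ctrl and 400.0 and 389.4 TPM in AZ20, which overlapped.

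**Figure D4:**
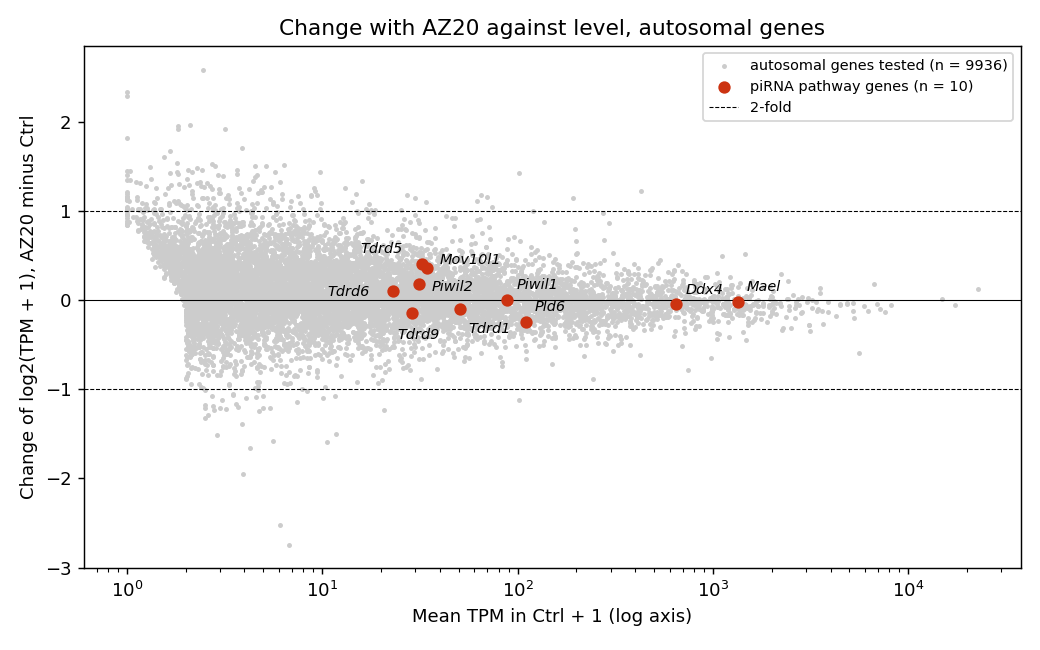
Change with AZ20 against level for autosomal genes tested (grey, n = 9936) and the 10 members (red). The horizontal axis is the mean TPM in Ctrl plus 1, on a log axis, the vertical axis is the change of log2(TPM + 1), AZ20 minus Ctrl, and dashed lines mark 2-fold. The members spread over the upper part of the range of levels and lie between -0.25 and 0.41.

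Of 29 other genes of the piRNA pathway, in lists by role, 27 had a row and 24 were tested, and 0 were called by limma or by voom. One list holds 13 biogenesis partners of the members, all tested. Pnldc1, which encodes the exonuclease that trims piRNA 3′ ends, was the only gene of these lists with an unadjusted p under 0.05 in limma (1 of 24). Among autosomal genes tested, 5.16% were higher and 1.18% lower at that level. Pnldc1 was at 5.69 and 9.34 TPM in Ctrl and 18.4 and 11.4 TPM in AZ20. Both AZ20 values were the higher ones, mostly in the first pair, with pair differences of 1.54 and 0.26. Its change of 0.90 ± 0.33 (SE) did not pass the adjustment (limma adjusted p = 0.455). The lowest change of this list was in Tdrd12, a Tudor-domain partner of PIWI proteins, at 161.3 and 187.6 TPM in Ctrl and 140.5 and 133.5 TPM in AZ20. Its groups did not overlap, with a change of -0.34 ± 0.17 (SE, limma adjusted p = 0.650). The median change of the 13 partners was 0.18.

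Piwil4, the third mouse PIWI gene, known from fetal germ cells, had 0 reads in every library, which allows up to 3 reads a library. The precursor transcription list holds Mybl1, Tcfl5 and Btbd18, which encode nuclear factors of pachytene piRNA precursor transcription. Mybl1, the gene of A-MYB, was at 15.3 and 11.6 TPM in Ctrl and 11.4 and 17.5 TPM in AZ20, and the groups overlapped (change 0.08 ± 0.28 SE, limma adjusted p = 0.968). Tcfl5 was at 148.2 and 120.5 TPM in Ctrl and 126.5 and 147.8 TPM in AZ20, again overlapping (change 0.03 ± 0.19 SE, adjusted p = 0.983). Btbd18, listed under its older symbol Gm13718, was under the level limit, with 7 and 0 reads in Ctrl and 14 and 62 reads in AZ20.

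The nuclear transposon silencing genes with a row were low in these cells, and 3 of the 6 listed were tested. The changes ran from -0.37 in Tex15, which encodes a partner of PIWIL4, to 0.04 in Morc1, with adjusted p values of 0.830 and 0.987 (limma). Tex15 was at 1.19 and 0.969 TPM in Ctrl and 0.499 and 0.716 TPM in AZ20, so that the groups did not overlap at a level near 1 TPM. Dnmt3l, a cofactor of DNA methylation in fetal germ cells, was under the level limit. Spocd1 and Dnmt3c were not matched to a row under the symbols tried, so their levels are not known here. Among 6 germ granule RNA proteins, all tested, the changes ran from -0.29 in Ddx6, a helicase of RNA decay granules, to 0.37 in Dcp1a, a decapping cofactor (adjusted p 0.836 and 0.818, limma). Ddx25, a helicase of the chromatoid body, had a level of the order of Mael, at 1076 and 1298 TPM in Ctrl and 1272 and 947.3 TPM in AZ20, and its groups overlapped.

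The microRNA pathway, the other small RNA pathway with Argonaute proteins, was set beside the members. Of 9 genes 7 were tested, and 0 were called by limma or by voom, with 0 at an unadjusted p under 0.05 in limma. Dicer1 and Ago2 (older symbol Eif2c2) were under the level limit. The changes ran from 0.04 in Ago3 to 0.61 in Ago1, with a median of 0.10 that became -0.05 under quantile normalization and 0.31 without AZ20 replicate 2. Ago1, listed as Eif2c1, was at 0.337 and 1.05 TPM in Ctrl and 1.14 and 1.98 TPM in AZ20, close to the level limit (limma adjusted p = 0.736). The median level in Ctrl was 4.78 TPM for the 7 microRNA pathway genes and 41.5 TPM for the 10 members.

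**Figure D5:**
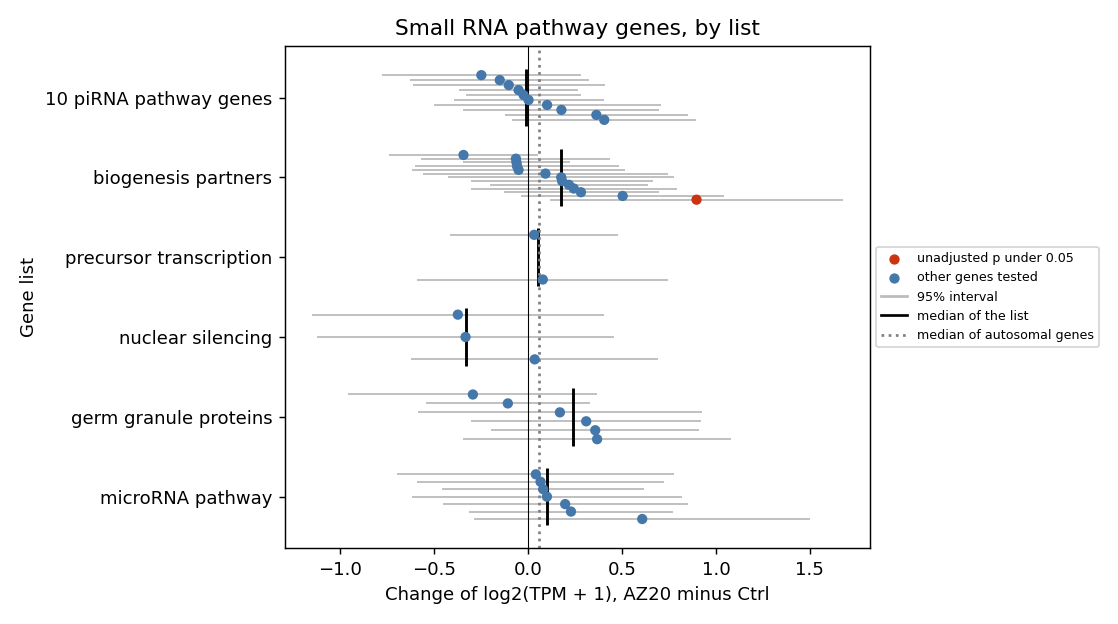
Change with AZ20 of each tested gene, by list of small RNA pathway genes, on the log2(TPM + 1) scale. Points are limma changes, grey bars 95% intervals, black lines list medians, and the dotted line is the median of autosomal genes tested. Pnldc1, in red, is the only gene with an unadjusted p under 0.05, and the median of the 10 members lies at -0.01.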

How the data were processed

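Per the methods and the submitters' processing notes, the authors processed paired reads of 150 bp with Trimmomatic 0.39 and STAR 2.5.4b (GRCm38), used unique alignments, counted reads on UCSC refGene genes with featureCounts 2.0.1 and deposited TPM for each library, which sum to 1000000. The labels name no strand setting. From the deposited TPM, whole reads were recovered for all 16857 genes above 0, because 1 length per gene applies in all libraries. Recovered reads can be too low by a whole factor, which TPM does not show. They gave the depth, 14083503 to 20407302 reads on genes, and served the voom alternatives. Another 92 rows without a gene name were left out.

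Log2(TPM + 1) of genes with a mean above 1 TPM in either group was fitted with limma 3.58.1 (R 4.3.3) with a variance trend, over all 4 libraries, with Benjamini-Hochberg adjustment over all 10316 genes. The pseudocount understates changes of low genes. The fit was run on simulated reads with the same dispersion for all genes, where only the recovery of median changes was required. Intervals and false calls were not judged by it. Other values came from Python 3.11.15, pandas 2.3.3 and numpy 2.4.6. Gene spans are from GENCODE M21 and promoters from RefSeq (GRCm38.p6).

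Per the methods, each mouse gave both treated and control cells, and libraries of the same number were assumed to be such a pair. The deviations of these libraries from the group means correlated at 0.23. The replicate number was a block only in an alternative. Members, lists and tests were chosen with earlier results of these data known, and the promoter search was added after the levels had been seen. All 10 members are named, and of each other list the highest and lowest change, genes with an unadjusted p under 0.05 and genes under the level limit. Gtsf1, Stk31, Ddx25 and genes with an E-box were named outside this rule, after their values were seen. P-values set the change between the groups against the spread of libraries within groups. That variance is first drawn by limma toward a trend over all genes tested. The SE, interval and p-value of a member therefore also reflect the spread of other genes.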

Additional observations from a re-analysis of the deposited data

How the results depend on the processing

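No member, other piRNA gene or microRNA pathway gene was called under any of 16 alternatives, including both other call rules. The replicate block changed no call among these genes. In this balanced design it cannot alter an estimated change, so the members' median of -0.01 was bound to stay. With the block, calls among all genes went from 235 higher and 5 lower to 424 and 23. The 14 refits gave 140 member changes between -0.52 and 0.57, of which 15 changed sign. Other level filters, other pseudocounts, no trend and the replicate block left the changes the same or nearly so. All 15 sign changes came from the scaling, quantile, voom and leave-one-out refits. Ddx4, Mov10l1, Tdrd5 and Tdrd9 kept their direction in all 14. Their groups did not overlap, so leaving out a library could not have changed their sign. Piwil1 went to -0.08 with median ratio scaling, -0.053 with quantile normalization, -0.021 with voom and -0.02 with voom and the replicate block. Quantile normalization also gave 0.018 for Mael, -0.039 for Tdrd6 and -0.044 for the median of the other piRNA genes, and moved the median of all genes from 0.07 to -0.07. The cause was not tested. Leaving out each library in turn changed signs in 6 members, with ranges of -0.028 to 0.035 for Piwil1, -0.026 to 0.381 for Piwil2, -0.088 to 0.041 for Mael, -0.277 to 0.073 for Tdrd1, -0.184 to 0.388 for Tdrd6 and -0.519 to 0.022 for Pld6. The last value was without AZ20 replicate 2. Without AZ20 replicate 1, or without AZ20 replicate 2, limma called 0 of all genes, so those refits say nothing of member calls. The lone library is then assumed to vary like the other group. The number of libraries limits these values: changes within the 95% intervals could not be resolved. The intervals do not cover effects of sorting or culture that all 4 libraries share.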

Other observations

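Among the biogenesis partners, some genes were as abundant as the upper members. Gtsf1, which encodes a small zinc finger protein that binds PIWI proteins and aids target cleavage, ranked 42 of the genes tested in Ctrl. It was at 2765 and 2549 TPM in Ctrl and 2474 and 2619 TPM in AZ20, above Mael in every library, and its groups overlapped (change -0.06 ± 0.12 SE, limma adjusted p = 0.935). Stk31, which encodes a germ cell protein with a Tudor and a kinase domain, was at 442.4 and 507.8 TPM in Ctrl and 510.4 and 651.2 TPM in AZ20. Both AZ20 values were the higher ones, with a change of 0.28 ± 0.17 (SE), and it did not pass the test (limma adjusted p = 0.735). Both genes were picked after their values were seen.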
